A study of Mus musculus with 18 samples.

Results

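The genes described here encode proteins of the synaptic vesicle and of the machinery that releases it: Snap25, Vamp2, Stx1a, Syt1, Cplx1, Cplx2, Syn1, Syn2, Syp and Sv2a. Every probe set whose platform symbol is one of these 10 was taken, which gave 26 of 45037 non-control probe sets, and the 10 genes are among 18193 with a symbol of their own. For each gene the probe set with the highest mean over all arrays leads, and all 10 lead probe sets passed the filter on low values. The samples are whole brains of C57BL/6 mice at 8 weeks of age, from wild type, ERalphaKO and ERbetaKO animals, with 3 female and 3 male arrays of each. The design text places the knockouts on the same C57BL/6 background, and names no treatment and no allele. The replicates are numbered in the labels, which do not tell whether each came from an animal of its own, and the p-values therefore cover the spread among these samples, which may be technical. The number of probe sets per gene was 6 for Syn2, 4 for Syt1, 3 for Cplx1 and Cplx2, 2 for Syp, Snap25, Vamp2 and Stx1a, and 1 for Syn1 and Sv2a.

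A nerve terminal releases transmitter when a vesicle fuses with the plasma membrane. The vesicle SNARE protein VAMP2 zips together with syntaxin-1A and SNAP-25 on the target membrane, complexins bind the assembled bundle, and synaptotagmin-1 couples it to calcium entry. Synapsins hold vesicles in a reserve pool, and synaptophysin and SV2A are membrane proteins of the vesicle itself. Estrogen receptors alpha and beta are ligand-bound transcription factors that recognise a palindrome of 2 arms, and neurons of several brain regions contain them.

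The target checks come before the results. The Esr2 probe set ran against its label, at 271 ± 98 (SD, n = 6) on ERbetaKO-labelled arrays against 28.7 ± 11.4 on wild type and 33.2 ± 22.6 on ERalphaKO-labelled ones. The brightest Esr1 probe set gave 143 ± 35.9 on wild type, 129 ± 21.6 on ERalphaKO-labelled and 197 ± 24.6 on ERbetaKO-labelled arrays. Where these probe sets lie against the disrupted parts of the genes is not known here, so the groups are called by their labels and each direction rests on them. Xist gave at least 3916 on each female array and at most 449 on each male array, so each array matched its labelled sex. Array signals correlated at 0.956 to 0.985 within a group and at 0.953 to 0.982 between groups. Pcp2, a Purkinje cell gene, ran from 117 to 10790 over the 18 arrays and was below 500 for 2 arrays each of wild type and ERalphaKO and 3 of ERbetaKO. The pituitary hormone gene Gh ran from 67.0 to 19903.

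The promoters of the 4 genes called against wild type in either knockout are shown for their sequence. They are the 250 bases before the annotated start, read on the gene's strand, from RefSeq on GRCm38.p6. Capitals mark matches to the estrogen response element arm GGTCA or its reverse complement, and to the cyclic AMP response element TGACGTCA. RefSeq promoter entries matched 8 of the 10 genes; Snap25 and Vamp2 have none in the table.
Cplx1, chr5:108550028-108550277, minus strand: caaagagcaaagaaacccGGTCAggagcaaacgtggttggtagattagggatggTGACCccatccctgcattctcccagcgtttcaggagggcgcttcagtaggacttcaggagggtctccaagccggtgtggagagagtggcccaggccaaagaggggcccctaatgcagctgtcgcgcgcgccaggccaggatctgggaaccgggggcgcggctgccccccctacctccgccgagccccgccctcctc
Cplx2, chr13:54302306-54302555, plus strand: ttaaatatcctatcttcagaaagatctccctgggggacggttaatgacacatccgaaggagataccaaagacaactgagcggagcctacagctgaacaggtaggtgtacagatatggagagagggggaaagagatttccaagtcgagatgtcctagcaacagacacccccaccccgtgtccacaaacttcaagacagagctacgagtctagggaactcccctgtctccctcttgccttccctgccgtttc
Syn1, chrX:20920919-20921168, minus strand: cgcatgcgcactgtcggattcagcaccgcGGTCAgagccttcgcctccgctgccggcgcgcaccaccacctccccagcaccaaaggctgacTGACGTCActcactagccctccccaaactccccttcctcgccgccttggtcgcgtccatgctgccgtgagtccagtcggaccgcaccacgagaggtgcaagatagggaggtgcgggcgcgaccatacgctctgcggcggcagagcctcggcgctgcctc
Sv2a, chr3:96180977-96181226, plus strand: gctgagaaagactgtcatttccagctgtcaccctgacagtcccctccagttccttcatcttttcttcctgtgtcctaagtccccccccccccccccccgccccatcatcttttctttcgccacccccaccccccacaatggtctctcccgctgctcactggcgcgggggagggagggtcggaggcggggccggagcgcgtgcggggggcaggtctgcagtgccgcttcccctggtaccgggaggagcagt
The Cplx1 window holds 2 arms, 1 on each strand, and the Syn1 window holds 1, while those of Cplx2 and Sv2a hold none. The full palindrome GGTCANNNTGACC was found in 0 of the 10 promoters of the 8 genes (Syn2 and Syt1 have 2 each) and in 0.0639% of all 32851 promoters of that length; GGTCA was found in 3 of the 10 and in 35.2% of all. TGACGTCA was found in 1, that of Syn1, where it starts at position -159 from the start site, and in 1.55% of all. Both strands were searched, and each GGTCA inside a palindrome was counted with the arms. A match describes these letters and not a binding site.

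In ERalphaKO-labelled brains Cplx1, Syn1 and Cplx2 were lower than in wild type, by 0.47 ± 0.080 (SE), 0.41 ± 0.097 and 0.39 ± 0.10 on the log2 scale, which is 0.721, 0.751 and 0.765 of the wild type value (limma, adjusted p = 0.00367, 0.0209 and 0.0375, n = 6 against 6). These 3 of 10 stand beside 6.71% of all 13070 genes called in either direction and 3.63% called lower. The other 7 did not pass, and 9 of the 10 differences were below 0. The median difference of the 10 was -0.26, and that of all tested genes was -0.029. After quantile normalization 0 of the 10 were called, as given with the brightness values further on. In whole brain, fewer cells of a type and less RNA per cell cannot be told apart.

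**Figure D1:**
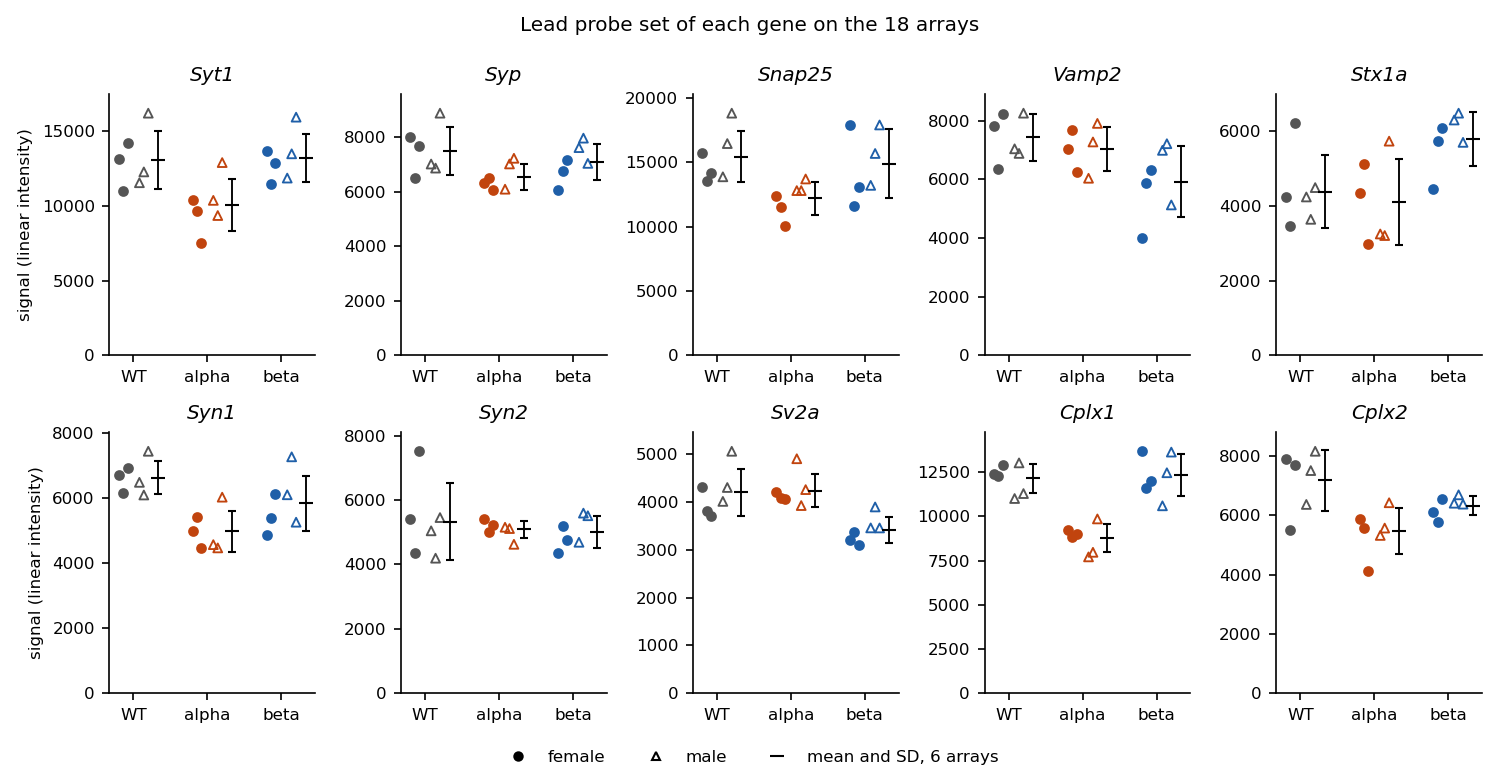
Signal of the lead probe set of each gene (linear intensity, y axis from 0) on the 18 arrays, by labelled genotype, with females as filled circles and males as open triangles; the bar at the right of each column is the mean and SD of 6 arrays. Cplx1 on the ERalphaKO-labelled arrays, at 7715 to 9860, lies below the wild type range of 11013 to 13026.

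The complexins are small soluble proteins that clamp and prime the SNARE bundle. Cplx1 gave signals of 12374, 12274 and 12934 on the wild type female arrays and 11013, 13026 and 11293 on the male ones. The ERalphaKO-labelled arrays gave 9207, 8816 and 9001 in females and 7715, 7974 and 9860 in males. The ERbetaKO-labelled arrays gave 13683, 11600 and 12015 in females and 10601, 12469 and 13637 in males. Each ERalphaKO-labelled value was below each value of the other genotypes. The within-group SD of Cplx1 was 0.13 on the log2 scale, below the median of 0.16 over tested genes at a log2 level of 12 or more. Its adjusted p stayed at or under 0.0145 whichever of the 18 arrays was left out.

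Cplx2, the second complexin of brain, gave 5496, 7604 and 8166 as lowest, median and highest wild type signal. On ERalphaKO-labelled arrays these were 4120, 5571 and 6430, and on ERbetaKO-labelled arrays 5792, 6398 and 6697. The wild type and ERalphaKO-labelled ranges overlapped, with wild type female 2 at 5496 and male 1 at 6373 below the highest ERalphaKO-labelled value. The call did not hold without wild type female 1 or 3, wild type male 2 or 3, ERalphaKO-labelled female 3, or ERalphaKO-labelled male 1 or 2, each left out singly, with adjusted p from 0.0663 to 0.0857. It also did not hold with no filter (0.054), with the compared groups alone (0.0675) or with median scaling (0.102).

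Synapsin I, the product of Syn1, coats vesicles and ties them to the cytoskeleton. Syn1 gave 6099, 6597 and 7443 as lowest, median and highest in wild type, 4468, 4776 and 6032 on the ERalphaKO-labelled arrays and 4870, 5756 and 7272 on the ERbetaKO-labelled ones. No ERalphaKO-labelled value reached the wild type range. Cplx1 and Syn1 were the 2 of 10 whose arrays did not overlap between these groups, against 4.67% of all tested genes. The Syn1 call did not hold without wild type male 3 (adjusted p = 0.0536), ERalphaKO-labelled female 3 (0.0523), male 1 (0.0536) or male 2 (0.0582), nor with median scaling (-0.43, 0.0556), under which Cplx1 kept its call. Syn2, its paralogue, gave 4195, 5233 and 7512 in wild type, 4626, 5134 and 5404 on the ERalphaKO-labelled arrays and 4360, 4968 and 5593 on the ERbetaKO-labelled ones. The 3 ranges overlapped, with differences from wild type of -0.042 ± 0.11 and -0.066 ± 0.11.

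Synaptotagmin-1, from Syt1, is the fast calcium sensor of release. Syt1 gave 10996, 12733 and 16221 in wild type, 7540, 10023 and 12911 on the ERalphaKO-labelled arrays and 11446, 13199 and 15954 on the ERbetaKO-labelled ones. Its difference of -0.38 ± 0.12 in ERalphaKO-labelled brains missed the threshold (adjusted p = 0.0584); without ERalphaKO-labelled male 3 the adjusted p was 0.0387. In ERbetaKO-labelled brains the difference was 0.019 ± 0.12. The wild type range overlapped that of each knockout. The other Syt1 probe sets, given further on, were not lower than wild type in ERalphaKO-labelled brains.

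Of the SNARE genes, Snap25 gave 13573, 14978 and 18814 in wild type, 10028, 12578 and 13701 on the ERalphaKO-labelled arrays and 11628, 14444 and 17898 on the ERbetaKO-labelled ones. Its difference was -0.34 ± 0.11 in ERalphaKO-labelled brains (adjusted p = 0.0733). Without ERbetaKO-labelled female 1, which enters that comparison through the shared estimate of the spread, the adjusted p was 0.0366. Vamp2 gave 6346, 7428 and 8259 in wild type, 6039, 7149 and 7910 on the ERalphaKO-labelled arrays and 3999, 6101 and 7217 on the ERbetaKO-labelled ones. The lowest Vamp2 values were ERbetaKO-labelled female 1 at 3999 and male 3 at 5129, and the difference there was -0.34 ± 0.12 (adjusted p = 0.092). Stx1a gave 3463, 4241 and 6235 in wild type, 2994, 3802 and 5738 on the ERalphaKO-labelled arrays and 4450, 5918 and 6488 on the ERbetaKO-labelled ones. It was the most variable of the 10, with a within-group SD of 0.33 on the log2 scale, and its difference of 0.41 ± 0.17 in ERbetaKO-labelled brains did not pass (adjusted p = 0.137).

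Sv2a encodes the vesicle glycoprotein that binds the antiepileptic drug levetiracetam. It gave 3694, 4152 and 5053 in wild type, 3920, 4135 and 4897 on the ERalphaKO-labelled arrays and 3093, 3415 and 3891 on the ERbetaKO-labelled ones. In ERbetaKO-labelled brains Sv2a was lower by 0.29 ± 0.072 on the log2 scale (adjusted p = 0.0237), 0.819 of wild type, and it was the 1 of 10 called in that comparison, in which 7.51% of all genes were called and 4.61% called lower. Among the genes of its brightness, at a mean log2 level of 11 to 12, 11.5% were called there and 9.41% called lower. The ranges overlapped through ERbetaKO-labelled male 2 at 3891, and 0 of the 10 genes had arrays that did not overlap there, against 4.09% of all genes. The call did not hold without wild type female 1 (0.0578), wild type male 3 (0.0514), ERbetaKO-labelled female 3 (0.0505) or ERbetaKO-labelled male 1 (0.0611). In ERalphaKO-labelled brains its difference was 0.018 ± 0.072. Syp, the synaptophysin gene widely used to stain synapses, gave 6489, 7355 and 8883 in wild type, 6078, 6421 and 7228 on the ERalphaKO-labelled arrays and 6063, 7099 and 7967 on the ERbetaKO-labelled ones. Its differences were -0.19 ± 0.080 (adjusted p = 0.162) and -0.075 ± 0.080.

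Both comparisons use the same 6 wild type arrays. Set directly against each other, the knockout groups differed for 4 of the 10 genes, in a comparison where 15.4% of all genes were called, 9.1% lower and 6.31% higher. In ERalphaKO-labelled brains Cplx1 was lower by 0.49 ± 0.080, Syt1 by 0.40 ± 0.12 and Stx1a by 0.52 ± 0.17 than in ERbetaKO-labelled brains (adjusted p = 0.00259, 0.0304 and 0.0458), and Sv2a was higher by 0.31 ± 0.072 (0.0121). Cplx1 and Sv2a were the 2 whose arrays did not overlap, against 5.85% of all genes. Over the 18 arrays left out singly, Cplx1 and Sv2a stayed called, with adjusted p up to 0.00931 and 0.0342. Syt1 lost its call in 7 of the 18 (up to 0.0812) and Stx1a in 12 (up to 0.112). With the Actb ratio as covariate 1 of the 10 was called, and with median scaling 2, where 5.81% and 18.6% of all genes were called.

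**Figure D2:**
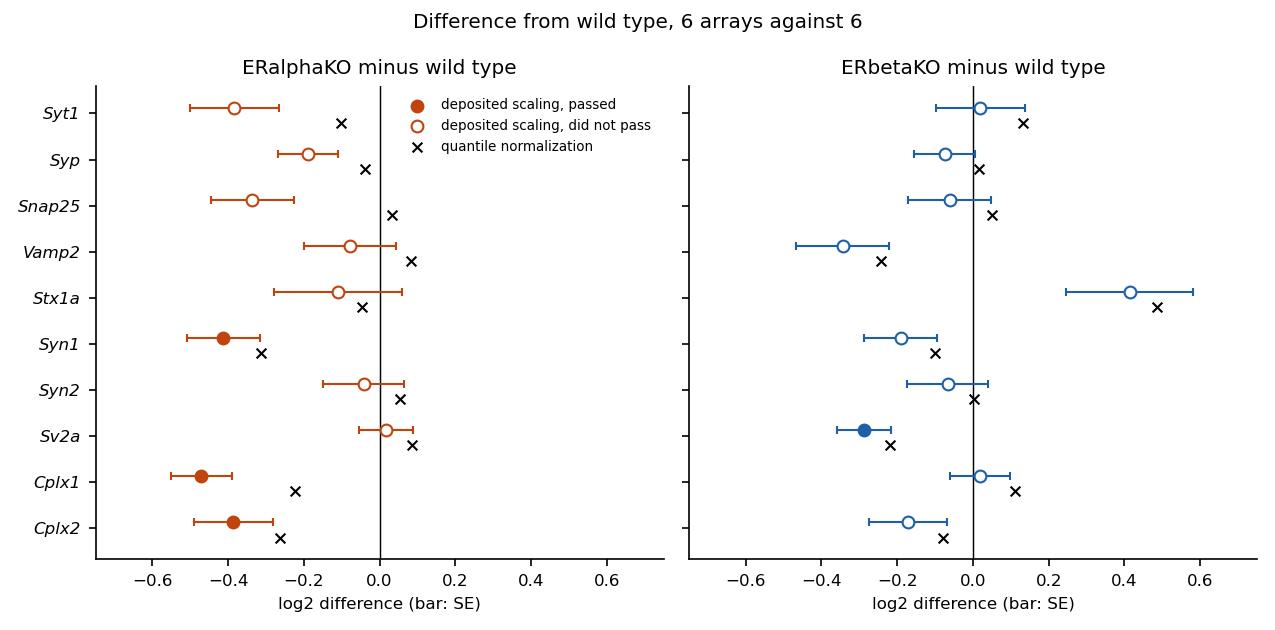
Log2 difference from wild type of each lead probe set (x axis, bar: SE, 6 arrays against 6) for ERalphaKO-labelled (left) and ERbetaKO-labelled (right) brains; circles are the deposited scaling, filled where the adjusted p is under 0.05, and crosses are the same difference after quantile normalization. On the left the crosses lie nearer 0 or above it than the circles, from -0.31 for Syn1 to 0.087 for Sv2a.

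The difference from wild type went with brightness in both knockout groups, and these genes are bright. Of the 13070 tested genes, 172 had a mean log2 level of 13 or more, Snap25, Syt1 and Cplx1 among them, and their median difference was -0.26, with 26.7% called and the calls all lower. The 543 genes at 12 to 13, which include 6 of the 10, had a median of -0.12 with 9.39% called. Those at 11 to 12, Sv2a among them, had a median of -0.048 with 9.85% called. At 9 to 10 and 10 to 11, where none of the 10 lies, the medians were -0.0009 and -0.0048, and under 8 the median was -0.057. In ERbetaKO-labelled brains the median went down over the whole range, from 0.12 under 8 and 0.058 at 8 to 9 to -0.074 at 12 to 13 and -0.096 at 13 or more. The highest signal on an array was 17425 to 24911 for wild type, 12717 to 20932 for ERalphaKO-labelled and 16004 to 26142 for ERbetaKO-labelled arrays.

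**Figure D3:**
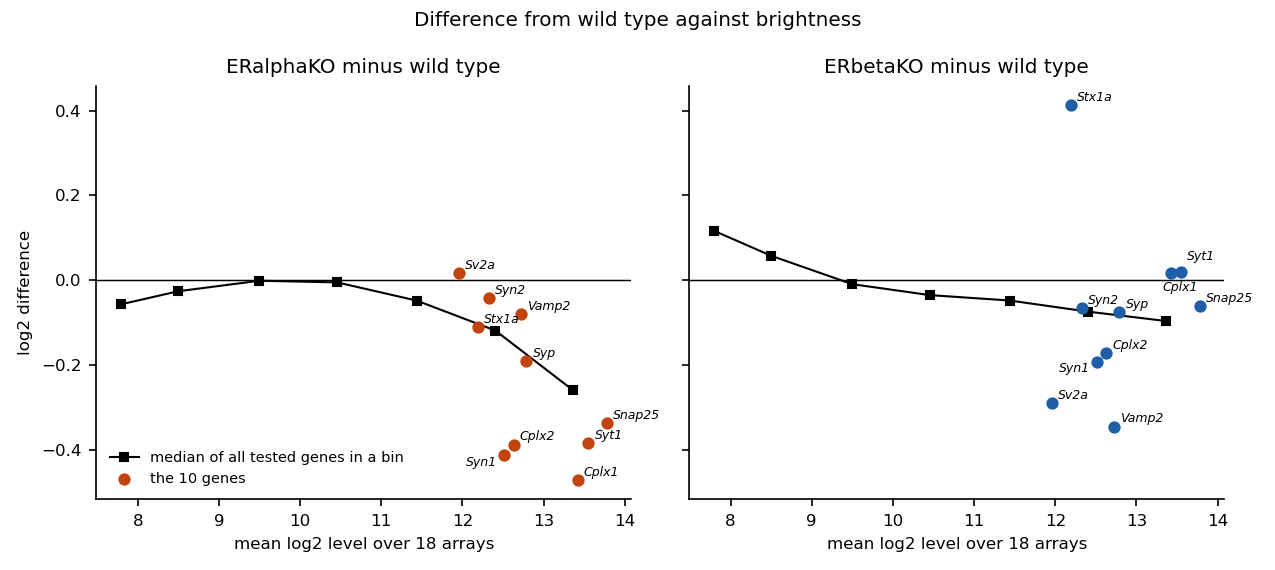
Log2 difference from wild type (y axis) against mean log2 level over 18 arrays (x axis); black squares are medians of all tested genes in bins of brightness and coloured points are the 10 genes. In ERalphaKO-labelled brains (left) the median falls to -0.26 in the top bin, where Snap25, Syt1 and Cplx1 lie, and in ERbetaKO-labelled brains (right) it runs from 0.12 in the dimmest bin to -0.096 in the top one.

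Quantile normalization, which gives each array the same distribution of signals, left 0 of the 10 called in ERalphaKO-labelled brains, where 6.35% of all genes were called. Cplx1 was then -0.22 (adjusted p = 0.0557), Syn1 -0.31 (0.0566) and Cplx2 -0.26 (0.0632), while Syt1 was -0.10 and Snap25 0.033. The median of the 10 moved from -0.26 to -0.042. With cyclic loess, chosen after seeing the data, Cplx1 at -0.30 and Cplx2 at -0.27 were called (0.0163 and 0.0462) and Syn1 at -0.30 was not (0.0593). Sv2a in ERbetaKO-labelled brains was called with both, at -0.22 and -0.23 (0.0492 and 0.047). With quantile normalization and the cerebellar score, described further on, as covariate, 3 of the 10 were called in ERalphaKO-labelled brains. That setting, also added after seeing the data, called 11.1% of all genes there, and the median of the 10 was -0.048. The part of the brightness shift in the differences under the deposited scaling was not tested further.

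Markers of cell types were set beside these differences. The summed signal of 12 general neuron markers, none at 0, was 73627 to 93045 for wild type, 65910 to 73304 for ERalphaKO-labelled and 68124 to 79455 for ERbetaKO-labelled arrays. Their median log2 difference was -0.24 and -0.17, with 1 of 12 called lower in each. Of the 9 cortical and hippocampal excitatory neuron markers 0 were called in either group, with medians of -0.15 and 0.18. The 12 astrocyte markers summed to 63351 to 72830, 51971 to 64408 and 50432 to 71318, with medians of -0.20 and -0.30 and 1 and 2 called lower, and Gfap, the intermediate filament of astrocytes, was 2869 ± 354, 2517 ± 510 and 1193 ± 237. Of 8 oligodendrocyte precursor markers 0 were called in ERalphaKO-labelled brains and 3 were lower in ERbetaKO-labelled brains, with medians of -0.054 and -0.33. Of 11 microglia and macrophage markers 2 and 1 were lower, with medians of -0.18 and -0.038. Over the other lists (cerebellar, thalamic, striatal, oligodendrocyte, endothelial and mural, choroid plexus and ependyma, pituitary), 0 or 1 marker was called in each direction. Medians in ERalphaKO-labelled and ERbetaKO-labelled brains were 0.10 and -0.87 for cerebellar, -0.057 and -0.48 for thalamic and -0.31 and -0.11 for striatal markers. They were -0.48 and -0.59 for pituitary, 0.022 and -0.28 for oligodendrocyte and -0.12 and -0.041 for endothelial and mural markers. Those of choroid plexus and ependyma were -0.055 and 0.078. The Actb 3′ over 5′ ratio, which rises as RNA is shortened, was 1.20 ± 0.021, 1.28 ± 0.079 and 1.48 ± 0.18, against 0.769 ± 0.021, 0.758 ± 0.013 and 0.756 ± 0.018 for Gapdh. The same ratio for pyruvate carboxylase ran the other way from Actb, at 2.60 ± 0.562, 2.38 ± 0.305 and 2.19 ± 0.226. With the Actb ratio as covariate Cplx1 kept its call in ERalphaKO-labelled brains (-0.44, adjusted p = 0.017), Syn1 (-0.40, 0.0553) and Cplx2 (-0.35, 0.0985) did not, and Sv2a in ERbetaKO-labelled brains did not (-0.35, 0.209). The median of the 10 in ERalphaKO-labelled brains was then -0.23. The part of cell content in these differences was not tested.

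The cerebellar score went with 2 of the 10 genes under the deposited scaling and with 3 after quantile normalization. On a score averaged from 12 cerebellar genes the means were 0.22 for wild type, 0.18 for ERalphaKO-labelled and -0.40 for ERbetaKO-labelled arrays, and the summed signal of the list ran from 8669 to 86165 with no marker at 0. Within the 6 groups Stx1a fell by 0.25 ± 0.048 and Vamp2 by 0.16 ± 0.042 on the log2 scale per unit of score (adjusted p = 0.0016 and 0.019), in a slope fit chosen after seeing the data that called 15.4% of all genes, 8.62% with a falling slope. Syn1 had a slope of -0.11 (0.0502) and Sv2a one of 0.0031. After quantile normalization Stx1a (-0.25, 0.000934), Vamp2 (-0.14, 0.0359) and Syt1 (-0.099, 0.00852) were called, where 16.4% of all genes were called and 9.34% had a falling slope. With the score as covariate Cplx1, Syn1 and Cplx2 kept their calls in ERalphaKO-labelled brains (0.0028, 0.00424 and 0.0207), and Syt1 gained one (-0.39, 0.0367). The share of all genes called there rose from 6.71% to 11.3% with this covariate. In ERbetaKO-labelled brains Sv2a kept its call (-0.29, 0.0231), Vamp2 gained one (-0.44, 0.00856) and Stx1a moved from 0.41 to 0.26. For this knockout the share rose from 7.51% to 10.3%, so both gains came with more calls over all genes. On the 11 arrays with Pcp2 of 500 or more, Cplx1 was -0.52, Syn1 -0.46 and Cplx2 -0.38 in ERalphaKO-labelled brains. On all 18 arrays they were -0.47, -0.41 and -0.39. Sv2a in ERbetaKO-labelled brains was -0.25 on the 11 arrays, against -0.29. Cplx1 kept its call and the others did not, but calls fell over all genes as well, as given under the processing settings. The part of cerebellar content in the lost calls was not tested.

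Sex was examined in the same fit. Within females and within males, with 3 arrays against 3, limma called 0 of the 10 genes in each of the 4 comparisons, where it called 0.383%, 0.811%, 0.329% and 1.77% of all genes. At an unadjusted p under 0.05 there were 5 and 3 of the 10 for ERalphaKO-labelled females and males, and 2 and 2 for ERbetaKO-labelled ones. The shares of all genes at that unadjusted p were 14.5%, 16.5%, 11% and 20.5% in the same order. Cplx1 was -0.47 ± 0.11 in females and -0.47 ± 0.11 in males (adjusted p = 0.0735 and 0.062), and Syn1 was -0.41 ± 0.14 in each. Sv2a was -0.28 in ERbetaKO-labelled females and -0.30 in males. The test of the difference between the sexes called 0 of the 10 and 0.0% of all genes for either knockout, with 0 of the 10 at an unadjusted p under 0.05. Between females and males over the 3 genotypes 0 of the 10 passed, against 0.0306% of all genes, and Sv2a, 0.13 ± 0.058 lower in females, had an unadjusted p of 0.0347.

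The other 16 probe sets of these genes did not all move with the lead. Against a background of 4.72% of all probe sets called in ERalphaKO-labelled brains, 1.62% lower and 3.09% higher, 2 of the 16 were lower and 2 higher, and 8 had a sign opposite to their lead. The second Cplx1 probe set past the test, 1417747_at, gave 6535 as wild type median and 5066 as ERalphaKO-labelled median, a difference of -0.40 ± 0.090 (adjusted p = 0.0192), with no overlap of the arrays. The share of all probe sets without overlap is not given here, for this probe set or for those of Syt1 below. The third, 1417746_at, was -0.053 ± 0.073 and overlapped. For Cplx2, 1421477_at was 3520 to 5449 on wild type and 3225 to 3591 on ERalphaKO-labelled arrays, a difference of -0.47 ± 0.10 (0.0171), and 1436383_at was -0.13 ± 0.14.

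Syt1 gave the widest disagreement among its own probe sets. In ERalphaKO-labelled brains the dim 1438282_at was 377 to 653, above the wild type range of 200.1 to 338, and higher by 0.70 ± 0.15 (adjusted p = 0.0162), where the lead was -0.38. The brighter 1421990_at and 1431191_a_at were 0.26 ± 0.13 (0.271) and 0.036 ± 0.19 (0.945) there and were not called, so only the lead was below 0. In ERbetaKO-labelled brains 1421990_at was 6122 to 9417, above the wild type range of 4422 to 5797, and higher by 0.66 ± 0.13 (0.0117), where the lead was 0.019. It was the 1 of 16 called there, against 3.59% of all probe sets called and 1.92% called higher, and 5 of the 16 had a sign opposite to their lead. For Syn2, 1458105_at was higher in ERalphaKO-labelled brains by 0.50 ± 0.13 (0.0312), but at a mean signal of 65.5 it lay near the pseudocount. Which transcripts these probe sets read was not examined, so a level is not compared between them.

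**Figure D4:**
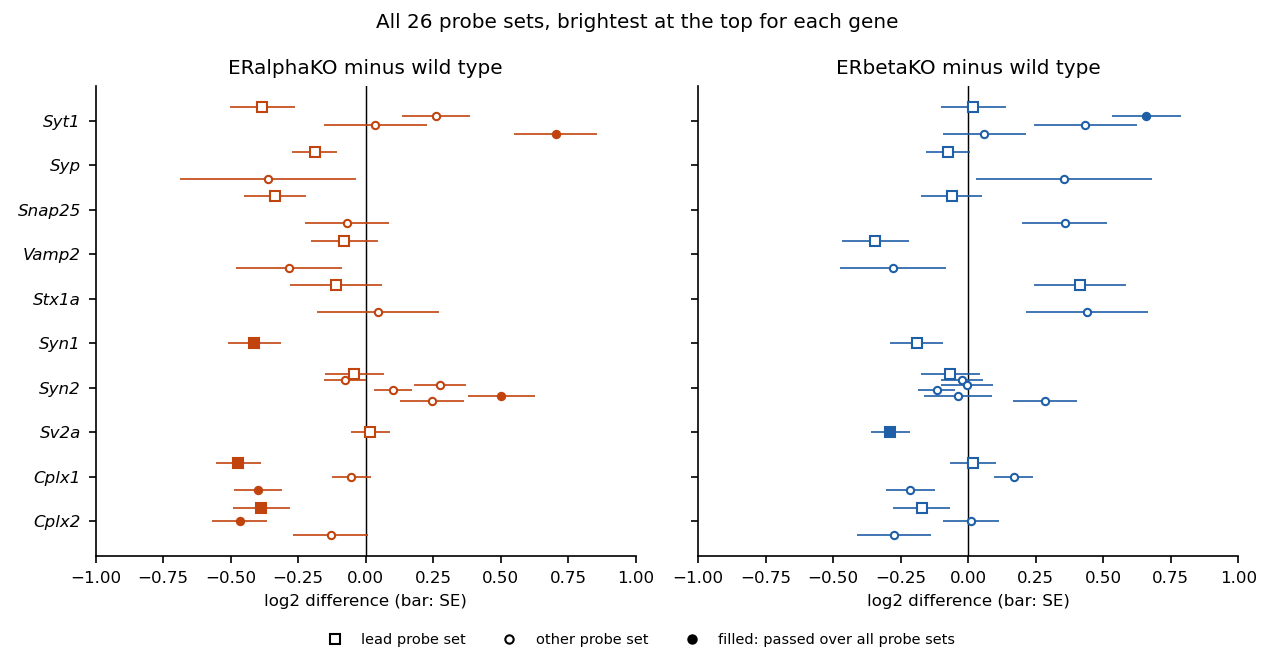
Log2 difference from wild type (x axis, bar: SE) of all 26 probe sets, by gene with the brightest at the top; squares are lead probe sets, circles the others, and filled symbols passed with p adjusted over all 45037 probe sets. In ERalphaKO-labelled brains (left) Cplx1 and Cplx2 each have 2 filled symbols below 0, and Syt1 and Syn2 have 1 filled symbol above 0.

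The 10 genes did not vary as 1 block over the 18 arrays. Likeness was measured as the root mean square difference between profiles standardised over the arrays, which is 0 for equal profiles and 1.41 for uncorrelated ones. Syt1 and Snap25 were nearest at 0.519, followed by Cplx2 and Syt1 at 0.571 and by Syp and Syn1 at 0.595. The median over 45 pairs was 1.11, and 7 pairs were above 1.41, with Stx1a and Sv2a farthest apart at 1.72. Syn2 had no member nearer than Vamp2 at 1.11. Outside the 10, the tested genes nearest to their mean profile were R3hdm4 at 0.353, Kif5a at 0.403, Wasf1 at 0.407, Selenow at 0.436, Rnf14 at 0.442 and Ptprs at 0.458. These distances are a description over arrays that share genotype, brightness and tissue content.

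By array, wild type male 3 had 9 of the 10 genes above their mean over all arrays, with a median deviation of 0.35 on the log2 scale. Wild type females 1 and 3 and ERbetaKO-labelled male 2 also had 9. ERalphaKO-labelled female 3 had 2 above their mean, with a median of -0.32 and its lowest value in Syt1 at -0.66. Wild type female 2 and ERalphaKO-labelled male 1 also had 2, with medians of -0.094 and -0.20. ERalphaKO-labelled male 3 had 7, with a median of 0.056. ERbetaKO-labelled female 1 combined the lowest Vamp2 value, -0.74 from the mean, with Snap25 at 0.35 above it.

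The rest of the presynaptic pathway was read from a list of 162 genes, of which 150 are on the array and 146 were tested. In ERalphaKO-labelled brains 6 were higher, 7 lower and 133 did not pass, which is 8.9% called against 6.71% of all genes, with a median of -0.073. In ERbetaKO-labelled brains 4 were higher, 8 lower and 134 did not pass, which is 8.22% against 7.51%, with a median of -0.021. These shares lie near the background. Without wild type male 1, or without ERalphaKO-labelled female 2, female 3 or male 1, the 13 calls in ERalphaKO-labelled brains became 8. The share of all genes called fell as well, to 4.86%, 4.14%, 3.76% and 3.57% in the same order, from 6.71%.

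Among the 31 endocytosis and recycling genes tested, 1 was higher and 2 lower in ERalphaKO-labelled brains. Dnm1, the dynamin that cuts vesicles from the membrane, went from 13405 ± 1314 in wild type to 9946 ± 1266 (-0.43, adjusted p = 0.0163), Pacsin1, a dynamin-binding protein, was -0.33 (0.0111), and the scaffold gene Itsn2 was 0.43 (0.0289). Dnm1 was brighter in both groups than Cplx1, at 12152 and 8762. Genes at a log2 level of 13 or more had a median of -0.26 there, with 26.7% called, all lower. The part of brightness in the pathway differences was not tested. In ERbetaKO-labelled brains 5 were lower and 0 higher: Pacsin1 by 0.42, the clathrin adaptor genes Ap2a1 by 0.45 and Ap2a2 by 0.31, the endophilin gene Sh3glb2 by 0.40 and the clathrin light chain gene Cltb by 0.26 (adjusted p from 0.0028 to 0.036). Ap2a2 and Cltb fall outside the naming rule and were named after their values were seen. Of 16 calcium sensor genes, Rph3a, a binding partner of Rab3 on vesicles, was lower in both knockout groups, by 0.58 and 0.67 (0.00747 and 0.00338), and Syt7, a slow calcium sensor, was lower in ERbetaKO-labelled brains by 0.42 (0.00862).

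Of 34 active zone and priming genes, the calcium channel subunit gene Cacnb4 was higher in both, by 0.49 and 0.28 (adjusted p = 0.00209 and 0.0374). In ERalphaKO-labelled brains the scaffold gene Ppfia2 was 0.43 (0.0139) and Rab3d -0.32 (0.0373). In ERbetaKO-labelled brains Pclo, of the active zone scaffold piccolo, was higher by 0.51 (0.0147), the priming gene Unc13b by 0.35 (0.0198), and Apba1, of a Munc18-binding adaptor, was lower by 0.56 (0.00511). Of 24 SNARE and partner genes, Vamp7, Stx16 and Stxbp5l were higher in ERalphaKO-labelled brains by 0.29, 0.24 and 0.32 (0.02, 0.0419 and 0.0327), Snap47 was lower by 0.33 (0.0482), and the complexin gene Cplx3 was higher in ERbetaKO-labelled brains by 0.55 (0.0161). Of 28 vesicle membrane genes the synaptogyrin gene Syngr1 was lower in ERalphaKO-labelled brains by 0.38 (0.01) and 0 passed in ERbetaKO-labelled brains, where the vesicular GABA transporter gene Slc32a1 was nearest (-0.38, 0.0513). Of 13 presynaptic regulators Sncb, of beta-synuclein, was lower in ERalphaKO-labelled brains by 0.54 (0.00484), and 0 passed in ERbetaKO-labelled brains, where Bdnf was nearest (0.37, 0.0727).

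**Figure D5:**
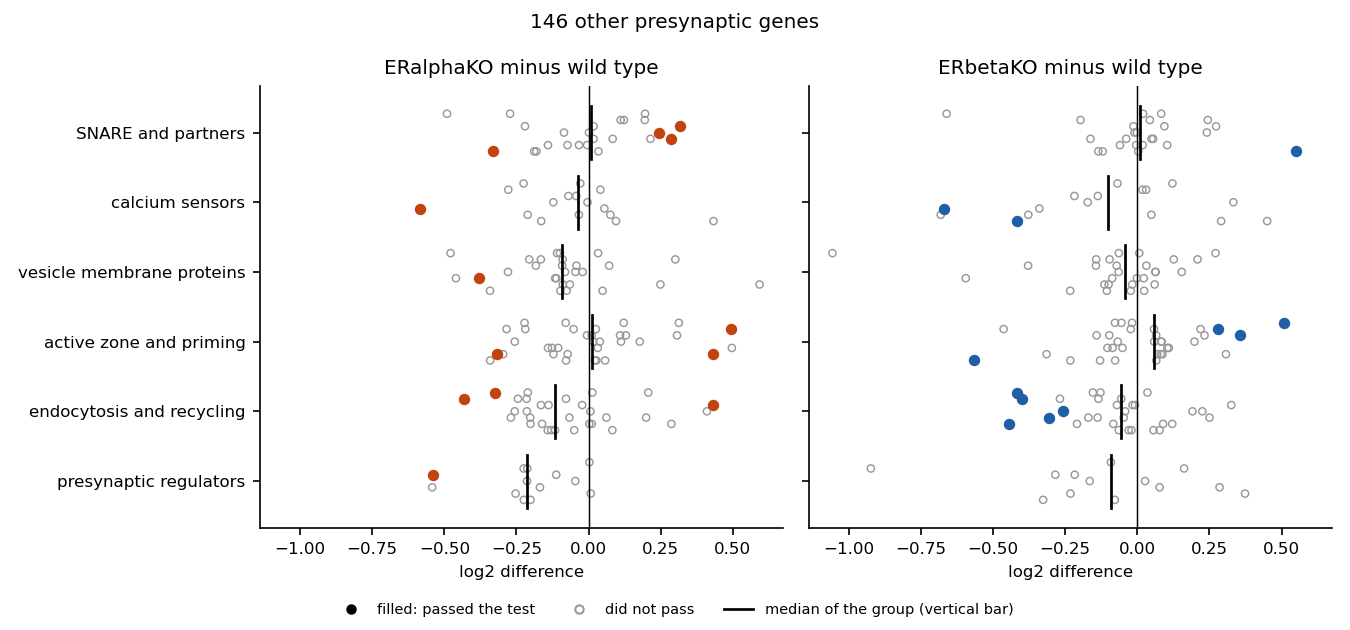
Log2 difference from wild type (x axis) of the 146 other presynaptic genes tested, in 6 subgroups; filled points have an adjusted p under 0.05, open points do not, and vertical bars are the subgroup medians. The medians in ERalphaKO-labelled brains (left) run from -0.21 for presynaptic regulators to 0.013 for active zone and priming genes, and filled points lie on both sides of 0.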

How the data were processed

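Whole brain RNA was read on 18 Affymetrix mouse expression arrays, in 6 groups of 3. The authors deposited 1 linear intensity per probe set and array; the submitters' processing notes name MAS5, and its version is not given in the sources used here. In each column deposited by the authors the mean of the 45101 probe sets, trimmed by 2% at each end, came to 500, which shows that the arrays had been scaled to 1 target. The number of arrays limits the precision, and no detection calls were used here.

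The tests left out 64 control probe sets. The probe set with the highest mean led for each of 18193 genes, and 13070 genes whose mean reached the 40th percentile of probe set means (a log2 level of 7.58) were tested. Signals were analysed as log2(signal + 63.63), the 25th percentile of all values, with limma 3.58.1 in R 4.3.3: a mean for each of the 6 groups, an intensity trend, 12 residual degrees of freedom, and Benjamini-Hochberg adjustment over all tested genes at 0.05. A genotype difference is the mean of the differences in the 2 sexes. Adjusted p-values are limma's. Because of the pseudocount, differences of dim probe sets are understated. Other probe sets of the 10 genes were tested in the same model over all 45037 probe sets without a filter. The fit was tested on simulated data with normal noise and known folds in the ERalphaKO arrays. It recovered 37.3% of 1.3-fold, 71.6% of 1.5-fold and 97.0% of 2-fold changes, with 5.65% of calls false. Many changes of 1.3-fold would thus be missed. The simulated noise was independent from gene to gene and held no shift by brightness or tissue content. The share of false calls on the real arrays may therefore differ. Figures were drawn with matplotlib 3.10.9.

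The 10 genes and every list were chosen with earlier results of these data known. The rule for named genes took the 10 genes, and, among other presynaptic genes, up to 3 per subgroup and direction with the smallest adjusted p past the threshold in each comparison of a knockout with wild type, or the 1 with the smallest p where a subgroup had none. It took the 6 genes nearest to the mean profile of the 10, the nearest other member of each, and Pcp2, Gfap and Gh. Alternatives were other pseudocounts, median scaling, quantile normalization, no filter or a stricter one, all probe sets, array weights, no intensity trend, the compared groups alone, a replicate block, 2 covariates, arrays with Pcp2 of 500 or more, and each array left out in turn. Cyclic loess, quantile normalization with the cerebellar covariate, the slope on the cerebellar score and a filter for other probe sets were added after seeing the data.

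Same-numbered arrays of different groups were compared by the correlation of their deviations from the group means. Over 45 such pairs r ran from -0.486 to 0.491 with a median of 0.0213, and 15 were over 0.1, so the numbers were not treated as pairs.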

Additional observations from a re-analysis of the deposited data

Results flagged for a closer look

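In a check of each gene's lead probe set for a single array far from the other 5 of its genotype, 2 of 30 groups passed Dixon's critical value of 0.625; chance passes about 1 in 20 groups. Stx1a in ERbetaKO-labelled female 1 had a signal of 4450, below the other ERbetaKO-labelled values of 5706 to 6488, with a gap over range of 0.659. Sv2a in ERalphaKO-labelled male 1 had a signal of 4897, above the others at 3920 to 4253, with a gap over range of 0.634.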

How the results depend on the processing

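Beside 3 genes called for ERalphaKO-labelled and 1 for ERbetaKO-labelled brains, quantile normalization left 0 in the former, and median scaling gave 1 and 2, array weights 2 in the latter, the cerebellar covariate 2 in the latter (2 also after quantile normalization), the Actb covariate 1 and 0, and arrays with Pcp2 of 500 or more 1 and 0. Over all genes in ERalphaKO-labelled brains, quantile normalization called 6.35%, median scaling 3.54%, the Actb covariate 3.27% and those arrays 0.604%, against 6.71%. Array weights gave 4 of the 10 there and the cerebellar covariate 4 (3 after quantile normalization), where 11.9%, 11.3% and 11.1% of all genes were called. In ERbetaKO-labelled brains median scaling called 14.4%, array weights 11.9% and the cerebellar covariate 10.3% (10.6% after quantile normalization), against 7.51%. The Actb covariate and those arrays called 0.933% and 1.85% there. Between the knockouts, median scaling gave 2 and the Actb covariate 1 in place of 4, where 18.6% and 5.81% of all genes were called in place of 15.4%. Within a sex, median scaling called 1, array weights 3 and the cerebellar covariate 2 in place of 0. Of the other probe sets, 3, 2 and 0 were called with median scaling, the Actb covariate and the Pcp2 minimum in place of 5. For the counts within a sex and of other probe sets, the background shares under these settings are not given here. Pathway genes called in ERalphaKO-labelled brains, 13 otherwise, were 6 with median scaling, 23 with array weights, 25 with the cerebellar covariate (24 after quantile normalization), 7 with the Actb covariate and 1 with the Pcp2 minimum. Over all genes array weights called 11.9% there and the cerebellar covariate 11.3% (11.1% after quantile normalization). In ERbetaKO-labelled brains, 12 otherwise, they were 21, 24, 20 after quantile normalization with the cerebellar covariate, 1 and 3. The cause was not tested.

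Signs turned in differences that were not called. In ERalphaKO-labelled brains after quantile normalization Snap25 was 0.033, Vamp2 0.083 and Syn2 0.054; with the cerebellar covariate added they were 0.034, 0.078 and 0.051. Cyclic loess gave Vamp2 0.044 and Syn2 0.055, the Pcp2 minimum gave Syn2 0.14, and the Actb covariate gave Sv2a -0.0003. In ERbetaKO-labelled brains quantile normalization gave Syp 0.015, Snap25 0.051 and Syn2 0.0018, and with the cerebellar covariate Snap25 was 0.060. Cyclic loess gave 0.0052, 0.042 and 0.0025. The Pcp2 minimum gave Snap25 0.22 and Syn2 0.056, and the Actb covariate gave Snap25 0.19. Syt1 was -0.12 with median scaling and -0.025 with the cerebellar covariate, and Cplx1 was -0.12 with median scaling. Between the knockouts Syp was 0.0040 with median scaling.

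With each of 18 arrays left out, genes called ran from 1 to 4 in ERalphaKO-labelled brains, from 0 to 1 in ERbetaKO-labelled brains, from 2 to 5 between them and from 0 to 1 within a sex, other probe sets from 3 to 5, and pathway genes in ERalphaKO-labelled brains from 8 to 16. The shares of all genes called ran from 3.05% to 8.35%, from 3.87% to 8.16% and from 9.1% to 17.2% in the 3 genotype comparisons. Differences that turned sign ran from -0.25 to 0.0057 for Stx1a, -0.13 to 0.062 for Syn2 and -0.026 to 0.064 for Sv2a in ERalphaKO-labelled brains. They ran from -0.036 to 0.093 for Syt1, -0.15 to 0.0047 for Snap25, -0.16 to 0.037 for Syn2 and -0.022 to 0.068 for Cplx1 in ERbetaKO-labelled brains, and from -0.016 to 0.056 for Syn2 between the knockouts.

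The replicate block gave 2 called in ERalphaKO-labelled brains, with Cplx2 at an adjusted p of 0.0522, 1 in ERbetaKO-labelled brains and 3 between them. It gave 732 genes in place of 877 and 852 in place of 981. Median scaling moved the median of all genes in ERbetaKO-labelled brains from 0.0051 to -0.12 and the share of calls that were higher from 38.6% to 7.25%; between the knockouts that share went from 40.9% to 77.1%. All genes called in ERalphaKO-labelled brains ranged from 79 with the Pcp2 minimum to 1553 with array weights, and in ERbetaKO-labelled brains from 122 with the Actb covariate to 1877 with median scaling. The 3 arrays a group and the lack of detection calls limit what small differences and dim probe sets can show.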
